A study of Mus musculus with 2 samples.

Results

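A set of 10 genes of TGF-beta and BMP signalling was followed through a serum response in mouse embryonic fibroblasts with normal or reduced THOC5, a subunit of the THO complex, which takes part in mRNA processing and nuclear export. These genes, Smad6, Smad7, Smad3, Skil, Ski, Inhba, Tgif1, Bambi, Tgfb1 and Tgfb2, were taken by symbol from 28233 gene symbols on the array, and 13 probes read them. Both cell populations were the same line of immortalized fibroblasts (MEF), of the strain background C57BL/6 x B6:129 Ola. They carried the floxed THOC5 allele and a tamoxifen-activated Cre driven from the Rosa26 locus. The control cells, which the labels call wildtype, received no tamoxifen, and the THOC5-depleted cells received it for 2 days. Each population gave 1 dual-color array, with unstimulated cells in Cy3 and cells after 1 h of serum (FCS) in Cy5. With 1 array per condition, 1 cell line and no array with exchanged dyes, no value below has a replicate and no test was made. Depletion, tamoxifen itself and the array cannot be told apart.

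TGF-beta family ligands bind paired serine/threonine kinase receptors, which phosphorylate Smad proteins that then enter the nucleus and switch target genes. TGF-beta and activin act through Smad2 and Smad3, and BMPs through Smad1, Smad5 and Smad9. The pathway is known for its feedback: its targets include inhibitory Smads and co-repressors that shut the signal down again. In fibroblasts it is best known for driving matrix production.

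Thoc5 itself had an unstimulated signal of 4808 in control cells against 546 after depletion, and a signal after serum of 3047 against 455. After scaling between the arrays its log2 difference, THOC5-depleted minus control, was -2.83 in the unstimulated and -2.43 in the stimulated state. Between 62.1% and 64.4% of the spots were well above background in the 4 channels. Of 10 fibroblast markers 9 were well above background in all 4 channels, and their summed signal, carried by a few bright genes, lay between 344368 and 460854. Within that list the unstimulated signals of Pdgfra and Col3a1 were 2.42-fold and 2.18-fold lower in THOC5-depleted cells after scaling, and Lum, at 36.2 and 25.9 in control cells, was not well above background in THOC5-depleted cells. The 5 epithelial markers summed to 91.1 to 145, with Epcam at 32.1 and 32.6 on the control array and not well above background on the other, the 5 endothelial markers to 890 to 1140 and the 5 immune markers to 7153 to 9317. In the endothelial list Kdr alone had 805 to 1015, and 2 of the 5 genes were not well above background in any channel. The dim Cdh5 had 42.7 and 50.7 on the control and 21.7 and 21.1 on the THOC5-depleted array. In the immune list Itgam alone reached 8700, and 3 of the 5 genes were measured in all channels. Within that list, Ptprc and Cd68 were not well above background on the control array and had signals of 14.4 to 26.0 on the THOC5-depleted array, while Cd14 had 584 and 527 on the control and 418 and 377 on the THOC5-depleted array, and Cd3e 234 and 276 against 196 and 200.1. The part of other cell types in the results was not tested, and in bulk RNA fewer cells of a type and less RNA per cell cannot be told apart.

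A serum ratio below is the processed Cy5 signal over the processed Cy3 signal of the same array. A gene counted as measured when the scanner software called it well above background in the channels compared, and for a gene with several probes the brightest one was used. A fold reduction is the serum ratio in control cells over that in THOC5-depleted cells. Of the 10 genes 9 were measured in all 4 channels, and Bambi was not well above background in any.

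The probes are 60 bases long. The first 30 bases of some are shown here. Skil, Tgfb2 and Smad3 have a pair of probes on the same transcript, given with the upstream one first because the probes of a pair gave different values, and Inhba is shown because it had the largest fold reduction of the 3 ligand genes. All letters are in lower case since no part of a probe was singled out, and the sequences are in the direction of the transcript as deposited.
Skil, transcript position 2464: tgctcagaggatggaggaattctatattga
Skil, transcript position 6420: tgccaatgcatatagttttatgattaaaat
Tgfb2, transcript position 2397: attggaaatacgcccaagatcgaacagctt
Tgfb2, transcript position 4196: tcatccattatttccctgatttcattgaaa
Smad3, transcript position 2112: cgctgaaggtcagcgtataggtgatgtaca
Smad3, transcript position 5030: tataaacgcccttctaataaacttttcacc
Inhba, transcript position 1118: tcaacatttgctgtaagaaacagttctttg
On mm9 the Skil probes lie at chr3:31016390-31016449 and chr3:31021203-31021262 on the plus strand. Those of Tgfb2 lie at chr1:188449333-188449392 and chr1:188447534-188447593 on the minus strand, and those of Smad3 at chr9:63497492-63497551 and chr9:63494574-63494633 on the minus strand. The Inhba probe lies at chr13:16118634-16118693 on the plus strand. Whether a probe lies in coding or untranslated sequence was not analysed here.

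Among the feedback genes the serum response was concentrated in 4: Smad7, Inhba, Skil and Tgif1 had serum ratios of 2 or more in control cells. In THOC5-depleted cells only Smad7 and Skil of the 9 measured genes did. Across all genes, 2.36% of those measured reached a ratio of 2 in control cells (419 of 17747) and 0.865% in THOC5-depleted cells (154 of 17811). None of the 9 had a ratio of 0.5 or less on either array, against 1.53% and 0.258% of all genes. The median serum log2 ratio of the 9 genes was 0.76 in control and 0.36 in THOC5-depleted cells, while the medians of all genes were -0.02 and -0.01. The median difference, THOC5-depleted minus control, was -0.57 over the 9 genes and 0.01 over all genes.

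**Figure D1:**
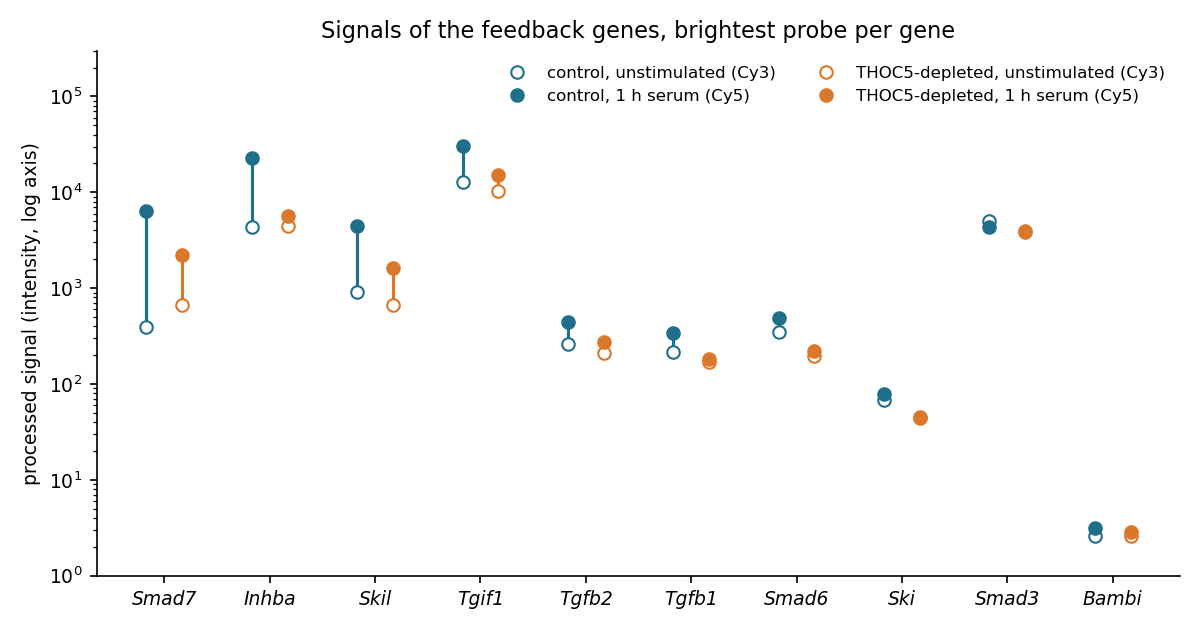
Processed signal (intensity, log axis) of the brightest probe of each of the 10 genes, with open points for unstimulated and filled points for serum-stimulated cells, blue for the control and orange for the THOC5-depleted array, 1 array each. The lines join the states of 1 array, and those of Smad7, Inhba, Skil and Tgif1 are longer in blue than in orange; heights of different genes cannot be compared because each probe has its own brightness, and Bambi lies at background.

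Inhba encodes the beta A chain of activins and of inhibin A, and had the largest serum ratio of the 3 ligand genes of the set in control cells. Its signal was 4316 in unstimulated and 23076 in stimulated control cells, and 4426 and 5701 in THOC5-depleted cells. The serum ratio was 5.35 in control and 1.29 in THOC5-depleted cells, a fold reduction of 4.15. The unstimulated signals of the arrays were close to each other, and the stimulated control signal stood alone. Inhba ranked 72 from the top of 17747 genes by its ratio in control cells and 1351 of 17811 in THOC5-depleted cells. By fold reduction it ranked 24 of 17193.

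Tgfb1 and Tgfb2 encode TGF-beta ligands, secreted in a latent form. Tgfb1 had signals of 214 and 337 in control cells and of 170 and 181 in THOC5-depleted cells, and serum ratios of 1.58 and 1.06. The brighter Tgfb2 probe had signals of 261 and 441 in control cells and of 213 and 274 in THOC5-depleted cells, and ratios of 1.69 and 1.28. The fold reduction was 1.48 for Tgfb1 and 1.32 for Tgfb2. Both were above 1 on both arrays, and neither reached 2 with its brightest probe.

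Smad3 encodes the receptor-activated Smad of the TGF-beta and activin branch. Its brighter probe gave 5014 unstimulated and 4319 stimulated in control cells, and 3991 and 3821 in THOC5-depleted cells. The serum ratio was 0.861 in control and 0.957 in THOC5-depleted cells. Smad3 was the only one of the 9 measured genes with a ratio below 1 on both arrays and the only one whose ratio was not smaller in THOC5-depleted cells. These ratios lie close to 1, and their log2 values of -0.22 and -0.06 differ by less than the software's error of 0.204 for a log2 ratio. Both turned positive without dye normalization (0.67 and 0.73), where all genes shifted by a similar amount (medians of 0.83 and 0.75), and with the spike-in mean subtracted (0.40 and 0.31). The control value also turned with the median over probes (0.018) and the dimmer probe (0.25). The difference, THOC5-depleted minus control, was 0.15 as reported. It turned to -0.28 with the median over probes, -0.72 with the dimmer probe and -0.092 with the spike-in mean subtracted.

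Smad7 and Smad6 encode the inhibitory Smads. Smad7 blocks TGF-beta and BMP receptors and recruits ubiquitin ligases to them, while Smad6 acts mainly on BMP signalling. Smad7 had a signal of 393 unstimulated and 6437 stimulated in control cells, and of 672 and 2200 in THOC5-depleted cells. The serum ratio was 16.4 in control and 3.28 in THOC5-depleted cells, a fold reduction of 5.0 (2.53 with both arrays set to the same spread of log2 ratios). Over the alternatives, the Smad7 ratio ran from 10.4 under that same spread to 28.3 without dye normalization in control cells, and from 3.18 to 5.42 after depletion. It was higher before serum and lower after serum in THOC5-depleted cells, so that both ends of the response lay closer together. Smad7 ranked 12 among all measured genes by its ratio in control cells, 52 in THOC5-depleted cells and 11 by fold reduction. Smad6 had signals of 349.5 and 493 in control cells and of 198 and 221 in THOC5-depleted cells. Its ratios were 1.41 and 1.12 and its fold reduction 1.26, so the inhibitory Smads differed widely in their serum response. Both Smad6 signals were lower on the THOC5-depleted array.

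Skil, Ski and Tgif1 encode nuclear co-repressors: SnoN (Skil) and Ski bind Smads and hold target genes off, and Tgif1 is a homeodomain protein that recruits histone deacetylases to Smads. The brighter Skil probe had a signal of 917 unstimulated and 4399 stimulated in control cells, and of 669 and 1635 in THOC5-depleted cells. Its serum ratio was 4.79 in control and 2.44 in THOC5-depleted cells, a fold reduction of 1.96 (1.28 with the same spread on both arrays). Tgif1 had signals of 12926 and 30143 in control cells and of 10291 and 15307 in THOC5-depleted cells. Its ratios were 2.33 and 1.49 and its fold reduction 1.57. Ski had signals of 67.4 and 79.0 in control cells and of 44.4 and 44.8 in THOC5-depleted cells, with ratios of 1.17 and 1.01. The paralogs Skil and Ski thus stood apart in the serum response, with Ski near 1 on both arrays. By its brighter probe, Skil ranked 88 among all genes in control and 87 in THOC5-depleted cells, although its ratio was smaller. The other Skil probe had a log2 ratio of 0.41 in THOC5-depleted cells, and the median over both probes was 0.85, under a ratio of 2. Tgif1 ranked 314 and 566.

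Bambi encodes a pseudoreceptor for BMP and activin without a kinase domain. Its signals were 2.57, 3.14, 2.62 and 2.83 in the order control unstimulated, control stimulated, THOC5-depleted unstimulated and THOC5-depleted stimulated. None was well above background, and no ratio is given for it. The lowest signals called well above background lay between 10.9 and 14.0 in the 4 channels.

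The fold reduction was 1.3 or more for 6 of the 9 measured genes, where 8.33% of all genes reached that value (1433 of 17193). It was 2 or more for Smad7 and Inhba, where 1.16% of all genes did. Skil lay just under that limit and passed it under 4 alternatives, which then gave 3 genes: the median over probes, the dimmer probe, no dye normalization and the spike-in mean subtracted. The last 2 of these settings moved all genes: the median log2 difference over all genes went from 0.01 to -0.075 and -0.24. Under them the Skil difference was -1.05 and -1.22, against -0.97 as reported. No feedback gene had a ratio larger by a factor of 1.3 or more after depletion, against 10.2% of all genes. The log2 ratio was nearer to 0 in THOC5-depleted cells for 9 of the 9, and for 10935 of the 17193 genes measured in all channels. Among the 412 genes of the array that had a ratio of 2 or more in control cells and were measured in all channels, the median fold reduction was 1.88, and 357 had a fold reduction of 1.3 or more and 169 of 2 or more. Against that median, Smad7 and Inhba had larger reductions, Skil a close one at 1.96 and Tgif1 a smaller one at 1.57. The spread of log2 ratios over all genes, as the median absolute deviation, was 0.195 on the control and 0.138 on the THOC5-depleted array. With both arrays set to the same spread, 3 genes kept a fold reduction of 1.3 or more: Smad7 at 2.53, Inhba at 3.01 and Tgfb1 at 1.36. Skil was then at 1.28 and Tgif1 at 1.27.

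**Figure D2:**
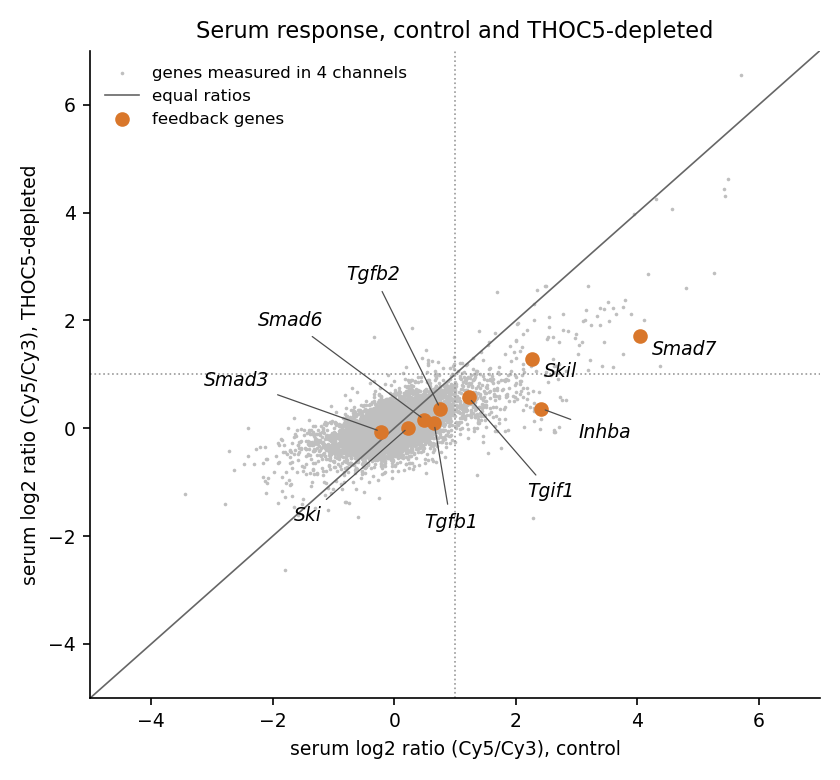
Serum log2 ratio (Cy5 over Cy3) in control cells against that in THOC5-depleted cells, with a grey point for each of the 17193 genes measured in all 4 channels and an orange point for each of the 9 measured feedback genes. The solid line marks equal ratios and the dotted lines a ratio of 2; Smad7, Inhba, Skil and Tgif1 lie right of the vertical dotted line and below the solid line.

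Sorted by control ratio, the order was Smad7, Inhba, Skil, Tgif1, Tgfb2, Tgfb1, Smad6, Ski and Smad3. Neighbours that differed by less than the software's error of 0.204 were Inhba and Skil (log2 ratios 2.42 and 2.26), Tgfb2 and Tgfb1 (0.76 and 0.66), and Tgfb1 and Smad6 (0.66 and 0.50). In THOC5-depleted cells Skil, at 1.29, stood above Tgif1 at 0.57 and Inhba at 0.37. Inhba there lay beside Tgfb2 at 0.36. Below them Smad6 (0.16), Tgfb1 (0.09), Ski (0.01) and Smad3 (-0.06) formed a series in which no neighbours were further apart than that error.

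Skil and Tgfb1 were each printed as 10 spots per array, so that the printing and reading error of their ratios could be measured. The 10 Skil spots gave ratios from 4.56 to 4.92 in control and from 2.38 to 2.52 in THOC5-depleted cells. The SD of the log2 ratio between spots was 0.032 and 0.031. The 10 Tgfb1 spots gave log2 ratios from 0.60 to 0.71 in control and from 0.05 to 0.12 in THOC5-depleted cells, with SDs of 0.031 and 0.019. The spots of the arrays did not overlap for either gene. Repeat spots share 1 RNA sample and 1 labelling, so their spread says nothing about other cultures. Over 261 and 262 such probes measured on the arrays, the median SD was 0.027 and 0.030.

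**Figure D3:**
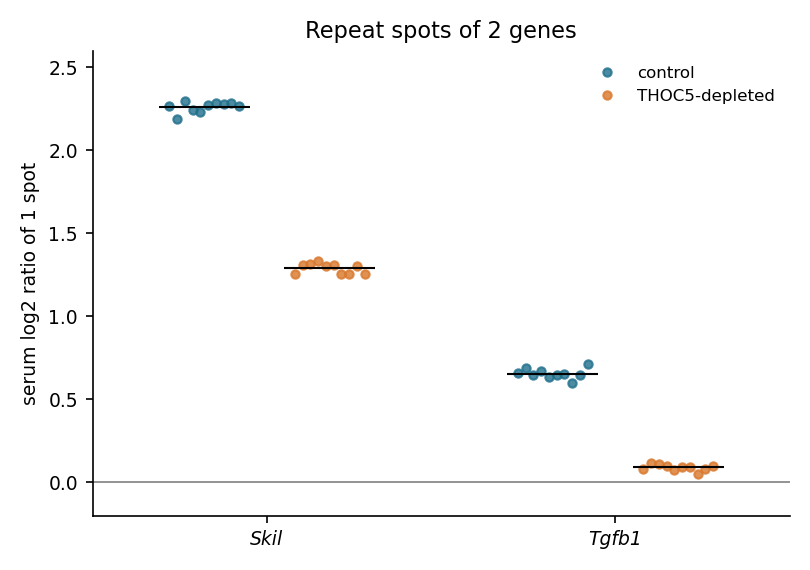
Serum log2 ratio of each of the 10 repeat spots of the brighter Skil probe and of the Tgfb1 probe, blue for control and orange for THOC5-depleted cells, with a black line at the mean. For both genes the control spots lie above the THOC5-depleted spots without overlap, and the spots show technical error only.

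To see which state differed, the arrays were scaled to each other (Aquantile), which moved the median log2 difference of all genes from -0.26 to -0.00 in both states. Differences below are log2 signals of THOC5-depleted minus control cells, and are less certain than ratios within an array. Before serum, Smad7 was 2.13-fold higher in THOC5-depleted cells (1.09), and none of the 9 genes was 2-fold lower. All genes gave 1.38% for 2-fold higher and 1.46% for 2-fold lower. Of the 412 genes with a control ratio of 2 or more, 44 were 2-fold higher and 6 were 2-fold lower. The other unstimulated differences were 0.35 for Inhba, -0.16 for Skil, -0.03 for Tgif1, -0.05 for Tgfb2, -0.11 for Tgfb1, -0.58 for Smad6, -0.45 for Ski and -0.00 for Smad3.

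After serum, 3 of the 9 genes were 2-fold or more lower in THOC5-depleted cells and none was 2-fold higher, while 1.69% of all genes were lower and 1.66% higher by that limit. The 3 are among the 412 genes with a control ratio of 2 or more, of which 111 were lower and 8 higher by that limit. The stimulated Inhba signal was 3.25-fold lower (-1.70), that of Smad7 2.35-fold lower (-1.23) and that of Skil 2.20-fold lower (-1.13). Smad6 differed by -0.92, Tgif1 by -0.68, Tgfb1 by -0.68, Ski by -0.67 and Tgfb2 by -0.45. For the dim Ski probe, normexp and loess gave -0.28 after serum and -0.20 before it. Smad3 differed by 0.15 and was the only one above 0, but without scaling between the arrays it was at -0.18. The count of 3 became 2 with the median over probes, where Skil differed by -0.61, and 4 without scaling between the arrays, where Smad6 differed by -1.15. Of the 9 feedback genes, Smad7 was the one that stood past the 2-fold limit in both states and in opposite directions. Without scaling between the arrays no gene was 2-fold apart before serum, since the Smad7 difference was then 0.77.

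Inhba, with the largest stimulated difference, was read by 1 probe, but Skil, Tgfb2 and Smad3 were each read by the pairs of probes printed above, and the probes of a pair did not give the same values. The upstream Skil probe, 3956 bases before the other, had signals of 94.1 and 415 in control cells and of 250.5 and 332 in THOC5-depleted cells. Its serum ratio was 4.41 in control and 1.33 in THOC5-depleted cells, a fold reduction of 3.33. In control cells both Skil probes gave ratios above 4, and in THOC5-depleted cells the upstream probe stayed under 2 where the downstream probe did not. The upstream unstimulated signal was higher in THOC5-depleted cells by 1.64 on the log2 scale, while the downstream one differed by -0.16. After serum the differences were -0.09 upstream and -1.13 downstream.

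The upstream Tgfb2 probe, 1799 bases before the other, had signals of 106 and 211 in control cells and of 154 and 174 in THOC5-depleted cells. Its ratios were 1.99 and 1.13, a fold reduction of 1.76. Upstream of Tgfb2 the unstimulated log2 difference was 0.75, against -0.05 downstream. After serum the values were -0.06 upstream and -0.45 downstream.

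The upstream Smad3 probe, 2918 bases before the other, was dim, with signals of 15.6 and 18.5 in control cells and of 32.2 and 23.3 in THOC5-depleted cells. All 4 were called well above background but lie near the lowest signals so called. Its ratios were 1.19 and 0.723, on opposite sides of 1, with software errors of 0.40 and 0.30 on the log2 scale. The unstimulated log2 difference was 1.2 upstream and -0.00 downstream.

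The 3 pairs therefore shared a direction: before serum, the upstream probe was higher relative to the downstream probe in THOC5-depleted cells, by 1.81 for Skil, 1.2 for Smad3 and 0.81 for Tgfb2. This direction was common on the array. Of 2082 transcripts with probes at least 500 bases apart, 72.9% had it, with a median of 0.18 and a 10th to 90th percentile range of -0.21 to 0.83. Skil ranked 13 from the highest of the 2082, Smad3 75 and Tgfb2 220. After serum the upstream minus downstream difference was 1.04 for Skil, 0.33 for Smad3 and 0.39 for Tgfb2, against a median of 0.05 over the 2082 transcripts, of which 55.6% were above 0. Smad7, Smad6, Inhba, Ski, Tgif1, Tgfb1 and Bambi have 1 probe each, so no such comparison was possible for them.

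**Figure D4:**
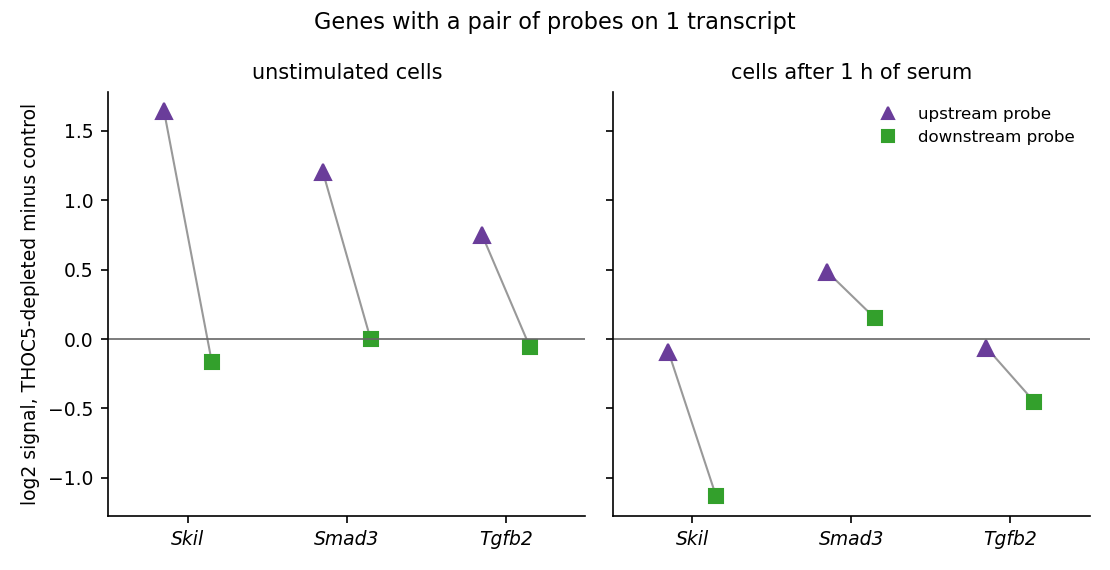
Log2 signal of THOC5-depleted minus control cells after scaling between arrays, for the upstream probe (triangles) and the downstream probe (squares) of Skil, Smad3 and Tgfb2, in unstimulated cells at left and after 1 h of serum at right. In each pair the triangle lies above the square, by 1.81 for Skil in unstimulated cells and by 1.04 after serum.

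For each of the 4 genes with a control ratio of 2 or more, the 3 genes with the most similar course over the 4 channels were found. Likeness was the Euclidean distance between log2 signals, each gene centred on its own mean, over 17184 other genes. For Smad7 they included Errfi1 (0.21) and Phlda1 (0.39). Errfi1, a feedback inhibitor of the EGF receptor, had serum ratios of 17.3 (control) and 4.0 (THOC5-depleted), close to the 16.4 and 3.28 of Smad7. For Skil they were Spry4 (0.18), Gem (0.24) and Dusp6 (0.25). Spry4 and Dusp6 are feedback inhibitors of the ERK pathway, with ratios of 4.35 and 2.14 for Spry4 and of 4.34 and 2.28 for Dusp6. For Inhba they were Pdgfa (0.22), Cplx1 (0.22) and Sox9 (0.25). Pdgfa, a growth factor for fibroblasts, had ratios of 4.33 and 1.27. For Tgif1 they were E130306D19Rik (0.06), Coq10b (0.10) and Zc3h12a (0.11), the last with ratios of 2.43 and 1.55. With 4 values per gene such a likeness is only a description.

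The rest of the pathway was read from lists by role, 89 genes in all, of which 80 were measured in control cells. Of these, 14 had a ratio of 2 or more in control cells and 10 of the 79 measured in THOC5-depleted cells, against 2.36% and 0.865% of all genes, and 1 had a ratio of 0.5 or less in control cells (1.53% of all genes). A fold reduction of 1.3 or more was found for 20 of 79 (8.33% of all genes) and of 2 or more for 12 (1.16%), while the ratio of 11 was larger by 1.3 times or more after depletion, near the share of 10.2% over all genes. None of the 12 measured receptors, 5 other Smads or 8 genes of latency and activation reached a ratio of 2 on either array, which is close to the 2.36% and 0.865% of all genes and is no result about these lists. The receptor-activated Smad1, Smad2 and Smad5 had control ratios of 1.47, 1.05 and 0.902, and the common Smad4 one of 1.12.

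Among BMP target genes, the Id genes, which encode inhibitors of basic helix-loop-helix factors, were the 4 of 9 with a control ratio of 2 or more (2.36% of all genes). Id1 went from 27.7 in control to 6.03 in THOC5-depleted cells, Id3 from 7.98 to 3.37, Id4 from 4.19 to 1.77 and Id2 from 3.95 to 1.5. All 4 had a fold reduction above 2, as Smad7 and Inhba did. A reduction of 2 or more was found for 1.16% of all genes, and for 169 of the 412 with a control ratio of 2 or more. Before serum, Id1 and Id2 were higher in THOC5-depleted cells by 1.05 and 1.28 on the log2 scale, the direction seen for Smad7. Of those 412 genes, 310 had that direction before serum, 44 of them by 2-fold or more. After serum, Id1 differed by -1.15, so that it too was past the 2-fold limit in both states and in opposite directions. Without scaling between the arrays its unstimulated difference was 0.73, under that limit.

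Among TGF-beta target genes 6 of 9 had a ratio of 2 or more on both arrays, and 6 had a fold reduction of 2 or more. Junb, an AP-1 subunit, went from 12.1 in control to 4.70 after depletion. Ctgf, a matricellular protein, went from 10.6 to 2.23, and Klf10, a TGF-beta-inducible zinc finger factor, from 8.60 to 3.98. Many of these genes also answer to other serum signals, and which signal raised them was not measured here. Cdkn2b, an inhibitor of cyclin-dependent kinases, was outside the 4 genes named for its list and was added after its values were seen, as the 1 pathway gene at or below 0.5: its ratio was 0.427 in control and 0.941 in THOC5-depleted cells.

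Antagonists and ligands gave few cases. Of the secreted antagonists, Fst (follistatin, which binds activin) had ratios of 2.79 and 1.34. Its stimulated signals were close on the arrays (a difference of -0.06), and its unstimulated signal was higher in THOC5-depleted cells by 0.997 on the log2 scale. That differs from Inhba, whose reduction lay on the stimulated side. Of the intracellular modulators, Pmepa1, which sequesters receptor-activated Smads, had ratios of 2.24 and 1.16, with a stimulated difference of -1.19. Of the other ligands, Gdf15 had ratios of 2.47 and 2.14 and Gdf9 of 1.63 and 2.00, both from dim to moderate signals of at most 309.9.

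**Figure D5:**
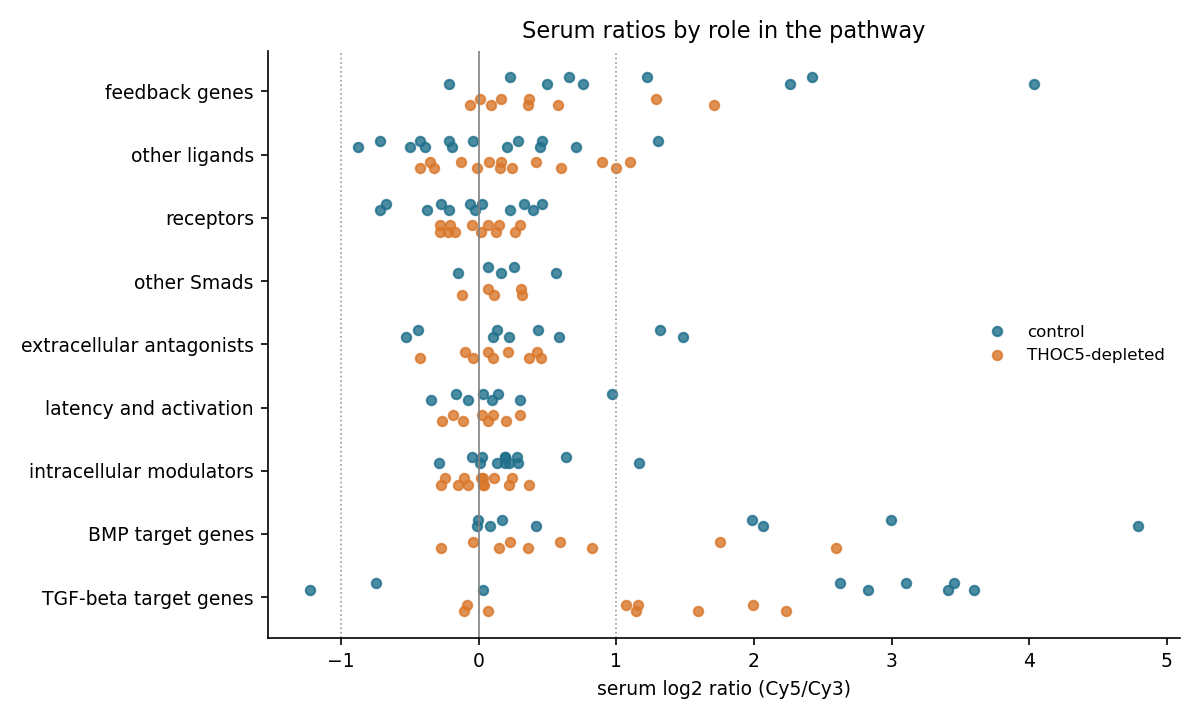
Serum log2 ratio of each gene measured in all 4 channels, by role in the pathway, blue for control and orange for THOC5-depleted cells, with dotted lines at 2-fold in either direction. Ratios of 2 or more sit mainly among the feedback genes and the target genes, while receptors and other Smads lie between the dotted lines on both arrays.

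Promoter sequence could be set beside these values for 7 of the 10 genes, from RefSeq (GRCm38.p6), in 11 windows of 300 bases, 250 before to 50 after each start site. A set of 6 motifs was searched for on both strands: CRE (TGACGTCA), AP-1 (TGANTCA), the SRF CArG box, the SMAD palindrome (GTCTAGAC), the GC-rich SMAD box (GGCGCC) and the EGR box (GCGGGGGCG). Over 32851 promoters of that length the shares with a match were 1.79%, 7.81%, 1.63%, 0.213%, 11.9% and 2.91%. Matches were found for Smad6 and Ski, and those stretches are shown with the match in capitals because they were the only matches.
Smad6, SMAD palindrome, chr9:64022041-64022108, minus strand: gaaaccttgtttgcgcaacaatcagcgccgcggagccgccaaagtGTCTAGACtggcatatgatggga
Ski, GC-rich SMAD box, chr4:155222735-155222785, minus strand: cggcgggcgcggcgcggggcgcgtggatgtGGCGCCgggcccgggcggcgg
The Smad6 match begins 4 bases before the start site and crosses it, and the Ski match begins 220 bases before it (positions -4 and -220). Both genes had small serum ratios, 1.41 and 1.17 in control cells. In the windows of Inhba, Tgif1, Tgfb1, Tgfb2 and Smad3 these letters were not found, and a match or its lack describes the window only.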

How the data were processed

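RNA of control and THOC5-depleted fibroblasts was hybridised to 2 dual-color Agilent arrays, and the authors deposited the scanner output (Feature Extraction 10.7.3.1). Per the file headers, the processed signals are intensity values after background subtraction and dye normalization within each array (linear and LOWESS), unscaled between arrays, and the log ratio in the deposited files is the log10 of Cy5 over Cy3. The authors also deposited a series table of other values, which equalled the size of the floored log10 ratio, without its sign, for 100% of features within 1e-04. Number of unmapped columns: 0.

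Outlier spots were left out, repeat spots were averaged on the log2 scale and the brightest probe stood for a gene. Cross-array values were scaled with limma 3.58.1 (Aquantile) in R 4.3.3; the rest used Python 3.11.15, numpy 2.4.6 and pandas 2.3.3. Limits were 2-fold for a ratio or difference and 1.3 and 2 for a fold reduction. Alternatives changed the background correction, dye normalization, value table, floor, background filter, probe choice, outlier rule, scaling and limits. The procedure was tested on simulated data. The 10 genes and all lists were chosen with earlier results of these data known. Named genes are every feedback gene, at most 4 per pathway list with a ratio of 2 or more or 0.5 or less on either array (ranked by control ratio), Thoc5, and the 3 nearest profiles of each feedback gene with a control ratio of 2 or more. Outside this rule, Smad1, Smad2, Smad4, Smad5, Cdkn2b, single cell type markers and the ligands of the last section are named too. The number of arrays limits the precision. A few genes that this rule names are not reported here.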

Additional observations from a re-analysis of the deposited data

Results flagged for a closer look

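The dim upstream probe of Smad3, at transcript position 2112, moved in opposite directions on the arrays, with serum log2 ratios of 0.25 (control) and -0.47 (THOC5-depleted). The difference was not tested, since each condition has 1 array. The brighter Smad3 probe had log2 ratios of -0.22 and -0.06.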

How the results depend on the processing

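Of 79 alternative values for the counts and the median over the feedback genes and the pathway lists, 64 stayed within 1.5 times the count or within the spot error of the median. Values from the series table are among the 64 but could not differ, since it holds the same ratios and their sign came from the scanner output. The change from 2 to 3 genes with a fold reduction of 2 is also among the 64. The cause of the 15 values that moved was not tested, except where the setting itself moves all genes. Without dye normalization the median log2 ratio of all genes moved to 0.83 (control) and 0.75 (THOC5-depleted), 8 and 5 feedback genes had a ratio of 2 or more, and 99.4% and 99.9% of the 2-fold genes were higher, against 60.7% and 77.0% as reported. With the spike-in mean subtracted the medians moved to 0.60 and 0.36, 7 feedback genes reached 2 in control cells, and the higher share was 97.1% and 96.5%. Relative to those medians the counts were 4 and 2 under both settings, as reported. After normexp and loess the higher share was 70.7% and 93.2%. Under one spread for both arrays 3 genes kept a fold reduction of 1.3, and the THOC5-depleted count at 2 was 1 with the median over probes or with the dimmer probe, where Skil dropped out. Without scaling between arrays 0 genes were 2-fold apart before serum. With scaling, a limit of 1.5 in place of 2 gave 7 genes apart after serum, where 11.5% of all genes were. The median difference over the feedback genes was -0.61 with the median over probes, -0.62 without dye normalization, -0.48 without a background filter, -0.49 after normexp and loess, -0.34 under one spread, -0.72 with the dimmer probe and -0.81 with the spike-in mean subtracted, below 0 each time. That of all genes was -0.24 with the spike-in mean subtracted, -0.075 without dye normalization and -0.064 without a background filter. Under the other settings of this list it lay between -0.0058 and 0.0085. Of the alternative values for single genes, 235 stayed within the spot error, 139 moved further and 13 turned, in 3 genes. Among the 139 the unstimulated Smad3 difference, -0.00 as reported and so without a direction, was 0.60 with the median over probes and 0.031 after normexp and loess. Smad3 in control cells had a log2 ratio of 0.018 with the median over probes, 0.67 without dye normalization, 0.25 with the dimmer probe and 0.40 with the spike-in mean subtracted. In THOC5-depleted cells it had 0.73 without dye normalization and 0.31 with the spike-in mean subtracted. Its difference was -0.28 with the median over probes, -0.72 with the dimmer probe and -0.092 with the spike-in mean subtracted, and its stimulated difference was -0.18 without scaling. The unstimulated Skil difference was 0.74 with the median over probes, and that of Tgfb2 was 0.35 with it and 0.0012 with 75th percentile scaling. No paired analysis was possible because each condition has 1 array. Signals near background limit Bambi, Ski and the upstream Smad3 probe.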

Other observations

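Of 14 measured ligands other than the feedback genes, 5 had a serum ratio larger by 1.3 times or more after depletion, where 10.2% of all genes did. The 5, named after their values were seen, were Inhbb, whose ratio was 0.607 in control and 1.11 in THOC5-depleted cells, Inha (0.859 and 1.51), Lefty1 (0.543 and 0.797), Bmp6 (1.22 and 1.86) and Bmp4 (0.743 and 0.992). For Inhbb, Lefty1 and Bmp4 the ratio was below 1 in control cells and nearer to 1 in THOC5-depleted cells, and 10935 of 17193 genes had a log2 ratio nearer to 0 in THOC5-depleted cells. Inhbb and Inha encode the other inhibin chains, and Bmp4 and Bmp6 BMP ligands. Inha, Bmp6 and Lefty1 had signals below 110 in all channels, and no test was made.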
